A study of Rattus norvegicus with 31 samples.

Results

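The 10 genes described here belong to the circadian clock and were followed through kidney cortex and colon of rats: the activators Arntl and Clock, the repressors Per2, Per3, Nr1d1 and Nr1d2, and the output genes Dbp, Tef, Usp2 and Wee1. They were taken by symbol from a table of 20207 genes, and all 10 were listed there and passed the filter on low counts in both tissues. The choice was made with results of the high-salt cortex in view. Differences of the 10 genes between treatment groups of the cortex are therefore a description and carry no p. The colon libraries were not named as the basis of the choice, but earlier results of these data were known when it was made. The study compared normal control rats (NC), a high-salt model of hypertension (HS), and rats on high salt that also received calcitriol, the hormonal form of vitamin D (CAL). There were 15 cortex libraries, namely 5 of NC, 4 of HS and 6 of CAL rats, and 16 from colon, namely 5, 5 and 6. Both HS and CAL rats received the high-salt diet, and CAL differed from HS by calcitriol. The sources used here do not give strain, sex, age, dose, duration or the time of day at which tissue was taken, and a difference between the groups in that time of day cannot be told apart from diet or calcitriol. The labels do not say whether libraries of a group came from separate animals, so a p measures the spread between these samples. In bulk tissue, fewer cells of a type and less RNA per cell cannot be told apart.

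The clock of mammalian cells is a loop of transcription. ARNTL (also called BMAL1) pairs with CLOCK on E-box sequences and drives the Per and Cry genes, whose proteins then repress that pair, and the Nr1d genes, whose proteins REV-ERB alpha and beta repress Arntl through ROR elements. The same pair drives the output factors DBP and TEF, which act on D-box sequences, so Arntl normally peaks at the opposite time of day from Dbp and Nr1d1. The kidney and the gut both hold such clocks, and sodium handling, absorption and motility follow them.

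The promoters show which of these elements stand in the letters next to the start sites. RefSeq sequences of the rat assembly GRCr8, another build than the Rnor_6.0 used for the counts, were at hand for 9 of the 10 genes, in 11 windows of 250 bases before a start site. The motifs searched on both strands were CACGTG (E-box), CACGTT (E-box variant), TTANNTAA (D-box) and TAGGTCA (ROR element), which stand in 5.59%, 4.07%, 5.32% and 2.26% of all 33469 such windows. Wee1 had no entry. Windows of 4 genes held a match, and 1 from each is shown 5′ to 3′ on the gene's strand, with the matches in capitals, because these genes are the activator, 2 repressors and an output factor described below.
Arntl promoter, 250 bases: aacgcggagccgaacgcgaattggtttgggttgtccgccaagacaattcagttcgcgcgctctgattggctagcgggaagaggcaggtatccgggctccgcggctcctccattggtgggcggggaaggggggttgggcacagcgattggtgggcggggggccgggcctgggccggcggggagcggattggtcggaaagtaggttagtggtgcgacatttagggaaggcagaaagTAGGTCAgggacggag
Per2 promoter, 250 bases: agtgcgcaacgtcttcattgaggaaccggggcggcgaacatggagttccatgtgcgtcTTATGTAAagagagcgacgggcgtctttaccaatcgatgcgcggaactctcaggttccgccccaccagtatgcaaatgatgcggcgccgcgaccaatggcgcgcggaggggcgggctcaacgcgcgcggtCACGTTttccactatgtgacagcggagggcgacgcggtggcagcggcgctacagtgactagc
Nr1d1 promoter, 250 bases: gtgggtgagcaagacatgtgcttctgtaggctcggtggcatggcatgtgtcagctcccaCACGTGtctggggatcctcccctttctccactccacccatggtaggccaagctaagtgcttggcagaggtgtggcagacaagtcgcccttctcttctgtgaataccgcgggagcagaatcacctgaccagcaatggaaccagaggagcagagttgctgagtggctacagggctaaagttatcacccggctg
Tef promoter, 250 bases: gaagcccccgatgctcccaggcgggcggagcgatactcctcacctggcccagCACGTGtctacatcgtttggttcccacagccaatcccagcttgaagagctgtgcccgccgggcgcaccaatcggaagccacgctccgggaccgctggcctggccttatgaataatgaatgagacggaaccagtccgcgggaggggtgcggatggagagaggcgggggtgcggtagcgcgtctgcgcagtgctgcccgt
The Arntl window (chr1:176766078-176766327, plus strand) holds TAGGTCA from 16 to 10 bases before the start. The Per2 window (chr9:99496994-99497243, minus strand) holds TTANNTAA from 192 to 185 and CACGTT from 62 to 57 bases before it. The Nr1d1 window (chr10:84229455-84229704, minus strand) holds CACGTG from 191 to 186 bases before the start, and a second Nr1d1 start site has CACGTT. The Tef window (chr7:115206577-115206826, plus strand) holds CACGTG from 198 to 193 bases before the start. None of the matches shown overlap, and a match here is a run of letters, not a measured binding site.

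Libraries held 289529 to 2265164 counts in the cortex and 267976 to 918820 in the colon, so a count of 0 allows up to 1.32 to 11.2 CPM (counts in a library scaled to a total of 1000000) with 3 counts as the limit. Levels below are CPM after trimmed-mean scaling over the tested genes. Marker genes of tubule and podocyte were present in the cortex libraries, apart from Pvalb, which was listed at 0 in all 15. The colon libraries held the epithelial markers Slc26a3, Car1, Krt20 and Guca2a. Colon HS replicates 3 and 4 stood apart on the first principal component (41.5% of the variance), at 52.9 and 20.3, the highest scores of the 16 colon libraries.

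In the high-salt cortex the activator Arntl was low and the output genes Dbp, Wee1, Usp2 and the repressor Nr1d2 were high. Of the 10 genes, 4 were higher and 1 was lower at an adjusted p under 0.05 (edgeR quasi-likelihood test), where 11% of all 7524 genes passed in either direction, 7.35% higher and 3.69% lower. For 4 of them (Dbp, Nr1d2, Per2 and Wee1, all higher) the HS and NC libraries did not overlap, against 7.44% of all genes that lay apart with HS higher. Since the choice used this contrast, nothing is read from those counts. The median log2 fold change of the 10 genes was 0.61, and that of all tested genes -0.01.

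Arntl, the activator without which the clock of most cells stops, stood at 17.0, 28.0, 16.2, 9.86 and 28.4 CPM in the cortex NC libraries. The HS libraries had 13.3, 4.58, 3.51 and 8.35 CPM, which are 6, 3, 1 and 7 counts, so 2 of the 4 values lie at or under the limit of counting. The CAL libraries ran from 13.4 over a median of 19.3 to 49.9 CPM. Only HS replicate 1 reached into the NC range, and every CAL library lay above every HS library. The log2 fold change was -1.43 (SE 0.46) for HS against NC and 1.70 (SE 0.44) for CAL against HS. Clock, the partner of Arntl, had 27.3 ± 3.84 CPM in NC (SD, n = 5), 28.0 ± 7.65 in HS (n = 4) and 28.2 ± 11.1 in CAL (n = 6). Its groups overlapped fully, and the log2 fold change of HS against NC was 0.04 (SE 0.29), with a sign that changed when single libraries were left out.

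**Figure D1:**
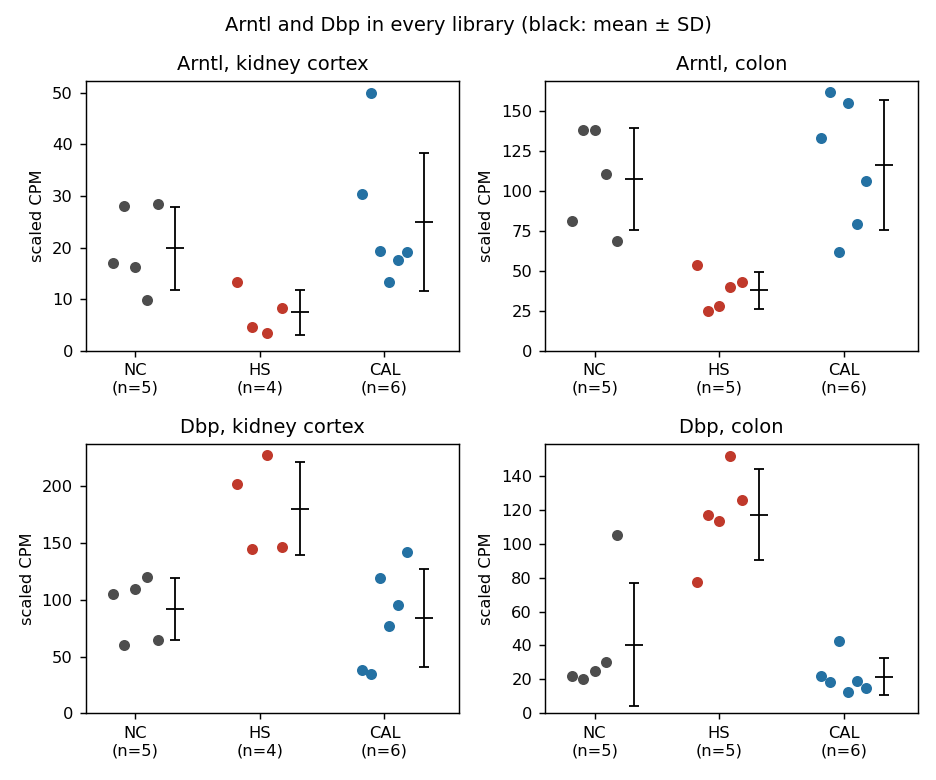
Arntl (top) and Dbp (bottom) in scaled CPM, for each library of kidney cortex (left) and colon (right), with black bars for mean ± SD. HS libraries lie low for Arntl and high for Dbp in both tissues; colon NC replicate 5, at 105 CPM of Dbp, lies among the HS libraries.

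Dbp, a transcription factor whose level in tissues swings widely over the day, mirrored Arntl. The cortex NC libraries had 105, 60.3, 110, 120 and 65.0 CPM and the HS libraries 202, 145, 228 and 147 CPM. The CAL libraries ran from 34.6 over a median of 86.3 to 142 CPM. All HS libraries lay above all NC and all CAL libraries, and CAL replicates 1 and 2, which had the most Arntl of all cortex libraries, had the least Dbp. The log2 fold changes were 0.96 (SE 0.30) for HS against NC and -1.11 (SE 0.28) for CAL against HS. Tef, a factor of the same family, showed little of this: it was 84.1 ± 23.1 CPM in NC, 104 ± 6.35 in HS and 91.2 ± 33.0 in CAL, with overlapping groups.

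Wee1, a kinase that delays mitosis and whose promoter is driven by the clock, had the largest change of the 10 genes in the high-salt cortex. It stood at 15.6, 12.7, 7.2, 15.8 and 10.01 CPM in NC and at 42.1, 42.7, 49.1 and 40.6 CPM in HS. In CAL it ran from 13.4 over 17.7 to 27.1 CPM. The HS libraries were tightly grouped and lay far above all others, while CAL overlapped NC. The log2 fold change was 1.79 (SE 0.27) for HS against NC and -1.21 (SE 0.24) for CAL against HS. Usp2, a ubiquitin protease that acts on clock proteins and on sodium channel turnover, had 42.5, 60.3, 52.2, 98.6 and 23.4 CPM in NC and 113, 74.8, 102 and 106 CPM in HS. NC replicate 4 reached above HS replicate 2, while all CAL libraries, from 37.1 to 71.0 CPM, lay below all HS libraries. Its log2 fold changes were 0.84 (SE 0.25) and -0.99 (SE 0.24).

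The 2 REV-ERB genes parted in the cortex. Nr1d2 stood at 46.8, 56.9, 54.0, 65.0 and 35.0 CPM in NC and at 115, 96.1, 98.2 and 89.5 CPM in HS, with no overlap, and CAL ran from 32.1 to 79.4 CPM. Nr1d1 went the other way, with 63.8, 45.0, 72.0, 65.0 and 41.7 CPM in NC and 33.2, 30.5, 45.6 and 26.3 CPM in HS. The HS libraries of Nr1d1 were mostly lower, but HS replicate 3 lay within the NC range. The log2 fold changes of HS against NC were 0.94 (SE 0.22) for Nr1d2 and -0.81 (SE 0.29) for Nr1d1, and both kept their sign under every alternative run. The Nr1d1 gene ends across the end of Thra, the thyroid hormone receptor gene on the opposite strand. Whether the counting used strand is not given in the sources used here, so reads of the 2 genes from the shared stretch may not have been told apart. Thra itself stood at 26.8 ± 5.83 CPM in NC and 13.1 ± 2.09 CPM in HS (log2 fold change -1.07, SE 0.30, adjusted p = 0.0228, edgeR quasi-likelihood test). The part of Thra reads in the Nr1d1 values was not tested.

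Per2, a repressor that also answers to hormones, had 12.8, 11, 3.60, 15.8 and 10.01 CPM in NC, 28.8, 19.8, 31.6 and 19.1 CPM in HS, and from 12.9 over 17.6 to 40.6 CPM in CAL. HS lay above NC without overlap, at a log2 fold change of 1.13 (SE 0.39), while CAL overlapped both other groups and stood at -0.19 (SE 0.34) against HS. In CAL, Per2 stood at 0.93 (SE 0.35) against NC, while Dbp and Usp2 stood at -0.15 (SE 0.28) and -0.15 (SE 0.24). Per3 varied within each group, from 3.60 to 21.7 CPM in NC and from 6.65 to 31.6 CPM in HS, and its groups overlapped.

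Between CAL and HS in the cortex, 2 of the 10 genes passed (Wee1 and Nr1d2, both lower in CAL), where 0.492% of all genes passed with CAL lower. For 5 of them the groups did not overlap. Arntl was higher in CAL, as were 1.87% of all genes without overlap, and Dbp, Wee1, Usp2 and Nr1d2 were lower, as were 2.3%. This contrast shares its HS libraries with the contrast that chose the genes, so the return of these genes towards NC in CAL is not independent of their departure in HS. Between CAL and NC, 0 of the 10 genes and 0% of all genes passed edgeR at an adjusted p under 0.05, and 0 of the 10 passed DESeq2. At an unadjusted p under 0.05 there were 2 of the 10, Per2 and Wee1, against 11.9% of all genes. The haemoglobin share of the counts moved with the cortex groups, at 0.378 to 1.95% in NC, 0.0946 to 0.172% in HS and 0.356 to 0.671% in CAL, and its part in these values was not tested.

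**Figure D2:**
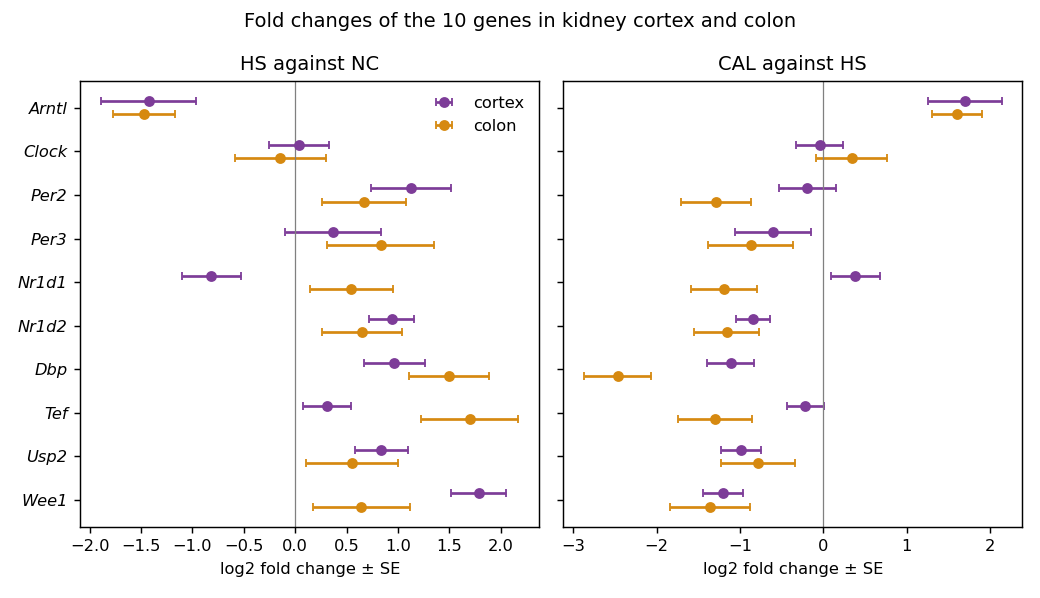
Log2 fold change with standard error of the 10 genes for HS against NC (left) and CAL against HS (right), in cortex (purple) and colon (orange). Arntl lies low in HS in both tissues (-1.43 and -1.47), and Nr1d1 lies on opposite sides of 0 in the 2 tissues.

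The colon, whose libraries were not named as the basis of the choice, showed the same order of Arntl and Dbp, with a test that 1 gene passed. Earlier results of these data were known at the choice, and the colon may come from the same rats as the cortex. It may therefore not be independent of the choice, and each colon p below is to be read with that limit. Between CAL and HS, Dbp was the only 1 of the 7217 genes tested with an adjusted p under 0.05 (0.0139% of all genes), and Arntl had the next smallest p. Between HS and NC, 0 of the 10 genes and 0% of all genes passed the edgeR quasi-likelihood test. DESeq2 called 1, Arntl (adjusted p = 0.0122). With edgeR, 3 of the 10 (Arntl, Dbp and Tef) had an unadjusted p under 0.05, as did 8.51% of all genes. The 2 comparisons share the HS libraries.

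Dbp in the colon had 22.1, 20.4, 24.8, 30.3 and 105 CPM in NC. The HS libraries had 77.2, 117, 113, 151 and 126 CPM, and the CAL libraries ran from 12.5 over a median of 19.0 to 42.5 CPM. All HS libraries lay above all CAL libraries and above 4 of the 5 NC libraries. Dbp fell from 117 ± 26.8 CPM in HS (n = 5) to 21.7 ± 10.7 CPM in CAL (n = 6), at a log2 fold change of -2.47 (SE 0.40, adjusted p = 0.0330, edgeR quasi-likelihood test). Leaving out single libraries gave adjusted p from 0.0196 to 0.165, and the call held in 3 of 11 such fits, those without HS replicate 1 (0.0309), HS replicate 3 (0.0371) or CAL replicate 3 (0.0196). The log2 fold change stayed between -2.69 and -2.33 over all 19 alternatives. Without HS replicates 3 and 4, the libraries that stood apart, it was -2.33 (adjusted p = 0.222). HS against NC gave 1.5 (SE 0.39, adjusted p = 0.30, edgeR quasi-likelihood test), and 2.23 (adjusted p = 0.00498) without NC replicate 5. That was the only 1 of 10 fits without a single library that passed, and their adjusted p ran from 0.00498 to 0.751. Without HS replicates 3 and 4 it was 1.35 (adjusted p = 0.545).

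Arntl in the colon had 81.2, 138, 138, 111 and 68.5 CPM in NC, 53.3, 24.7, 27.6, 39.7 and 43.1 CPM in HS, and from 61.7 over 119.5 to 162 CPM in CAL. The HS libraries lay below all 11 others. The log2 fold change was -1.47 (SE 0.30) for HS against NC (edgeR quasi-likelihood test, adjusted p = 0.198) and 1.6 (SE 0.29) for CAL against HS (adjusted p = 0.0784). Ordered by p, Arntl was number 3 of 7217 genes in the former and number 2 in the latter comparison. Its adjusted p over the alternatives ran from 0.00924 to 0.506 for HS against NC and from 0.00172 to 0.682 for CAL against HS. Clock showed no such difference in the colon, at 30.8 ± 19.1, 25.9 ± 10.3 and 33.6 ± 18.7 CPM in NC, HS and CAL.

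Tef in the colon had 29.5, 15.7, 2.76, 6.58 and 33.4 CPM in NC and 37.5, 51.6, 63.6, 54.6 and 92.7 CPM in HS, and ran from 6.22 to 36.2 CPM in CAL. HS lay above both other groups without overlap. The log2 fold changes were 1.70 (SE 0.47, adjusted p = 0.330, edgeR quasi-likelihood test) and -1.30 (SE 0.45, adjusted p = 0.345). Wee1 had 29.5, 1.57, 22.1, 11.8 and 36.7 CPM in NC, 45.4, 18, 27.6, 27.3 and 36.4 CPM in HS and 6.05 to 17.5 CPM in CAL. Its CAL libraries lay below all HS libraries (-1.36, SE 0.48, adjusted p = 0.345), and NC spanned both. Usp2 overlapped between all groups in the colon, with 1 HS library at 2.24 CPM and the others from 38.7 to 56.3 CPM.

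The repressors moved less clearly in the colon. Nr1d1 had 69.2, 94.3, 33.2, 231 and 162 CPM in HS, against 45.6 to 122 CPM in NC and 18.7 to 73.5 CPM in CAL. Nr1d2 had 60.2, 74.1, 116, 54.6 and 129 CPM in HS, against 24.8 to 95.2 CPM in NC and 12.4 to 73.6 CPM in CAL. All groups of both genes overlapped. For CAL against HS the log2 fold changes were -1.19 (SE 0.40) for Nr1d1, -1.16 (SE 0.39) for Nr1d2, -1.29 (SE 0.42) for Per2 and -0.87 (SE 0.51) for Per3, and none passed edgeR (adjusted p = 0.345, 0.345, 0.345 and 0.572). Over the 10 genes, 7 had an unadjusted p under 0.05 in CAL against HS, where 10.5% of all genes did, and 4 did not overlap. These were Arntl, higher in CAL as were 0.263% of all genes without overlap, and Dbp, Tef and Wee1, lower in CAL as were 0.263%. The median log2 fold change of the 10 genes was -1.18, and that of all genes -0.03. For HS against NC, 2 did not overlap, Arntl lower (0.942% of all genes) and Tef higher (0.457% of all genes), and the medians were 0.65 and 0.04.

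CAL and NC did not separate any of the 10 genes in the colon. With edgeR 0 of the 10 and 0% of all genes passed, with DESeq2 also 0 of the 10, and at an unadjusted p under 0.05 there was 1 of the 10, Dbp at -0.97 (SE 0.42), against 3.85% of all genes. Other cell types also differed between colon libraries. The summed leukocyte markers (4 of 4 listed; Cd79b at 0 in some libraries) ran from 70.7 to 512 CPM in NC, 53.3 to 1153 in HS and 64.1 to 407 in CAL, and those of smooth muscle (5 of 5) from 1541 to 10101.5, 1055 to 15221 and 1845 to 3551 CPM. HS replicate 4 held the most leukocyte markers of the colon libraries and HS replicate 2 the most of smooth muscle, and the part of these cell types in the colon values was not tested.

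**Figure D3:**
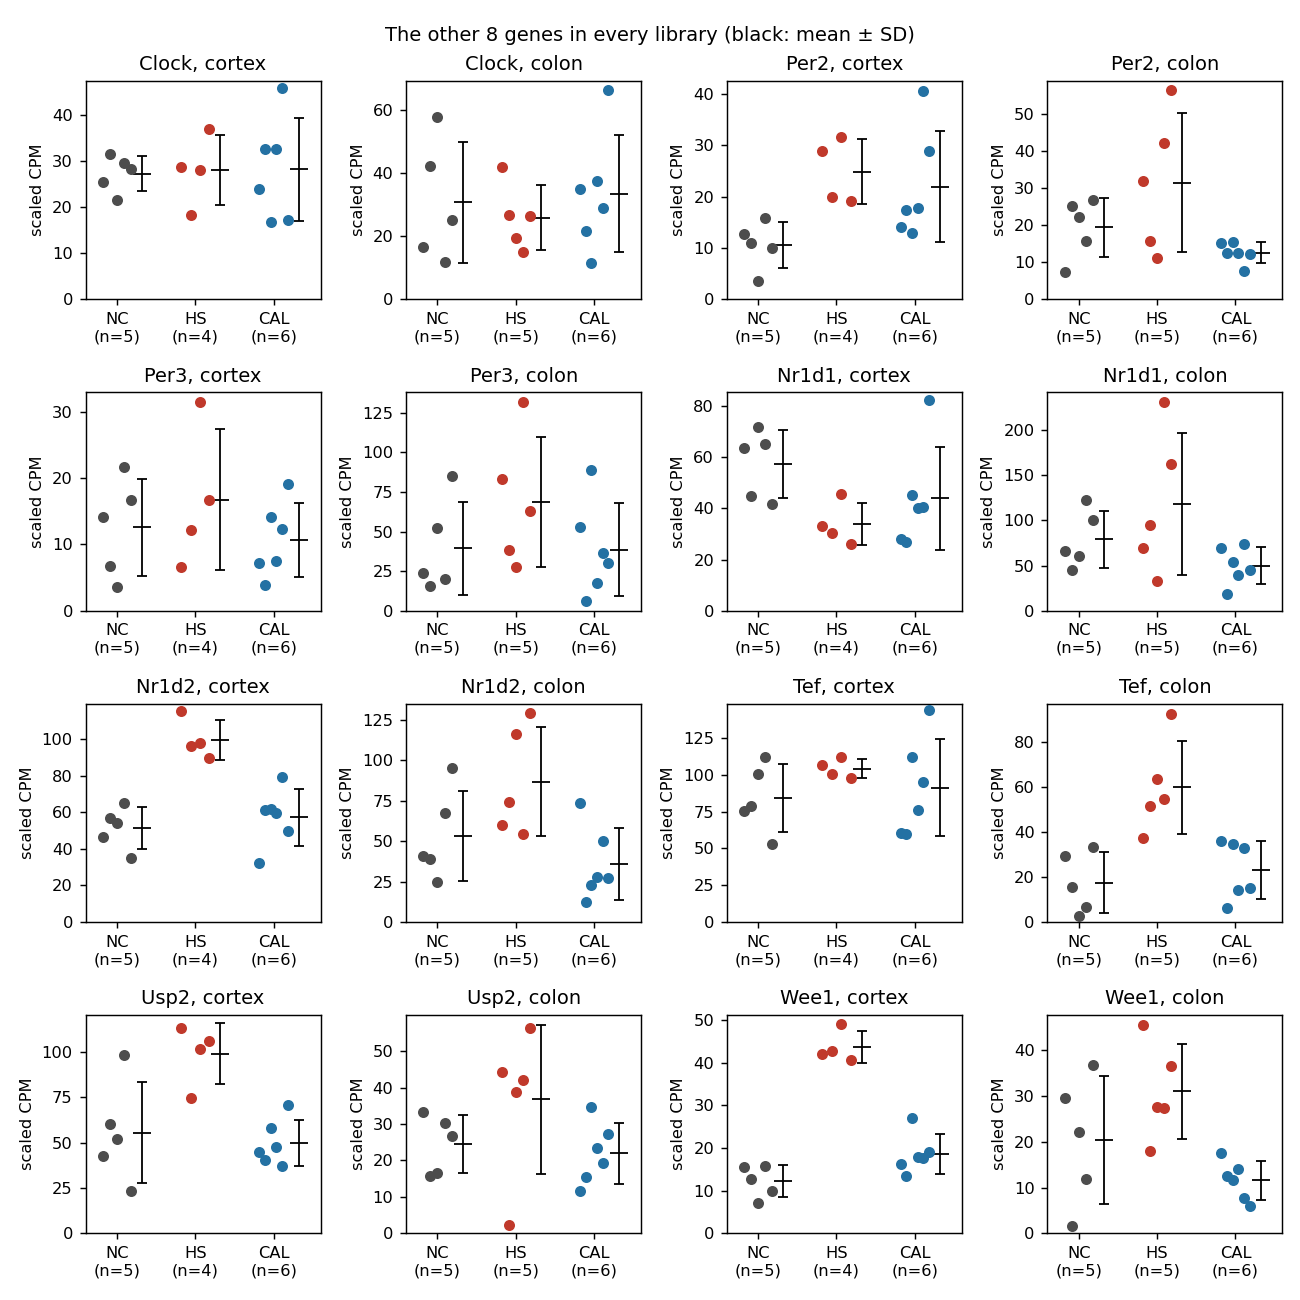
The other 8 genes in scaled CPM, one panel for each gene and tissue, with each library as a point and mean ± SD in black. Wee1, Nr1d2 and Per2 separate HS from NC in the cortex, Tef does so in the colon, and Clock separates no groups.

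The ratio of output to activator within a library needs no scaling between libraries. The Dbp to Arntl ratio of counts (0.5 added to each) was 5.96, 2.13, 6.47, 11.2 and 2.26 in the cortex NC libraries and 14.1, 27.3, 43.7 and 16.5 in the HS libraries. In the CAL libraries it was between 0.698 and 7.10, with a median of 5.36. All HS libraries lay above all others. The highest rests on 65 Dbp counts and 1 Arntl count, whose plain ratio of 65.0 has an exact (Clopper-Pearson) 95% interval of 11.3 to 2606, for counting error only. HS replicates 1, 2 and 4, with 6, 3 and 7 Arntl counts, had intervals of 6.71 to 42.4, 10.5 to 156 and 8.28 to 44.6. These take in the 11.2 of NC replicate 4, and the interval of HS replicate 3 starts near it. That 11.2 has 0.5 added to each count, unlike the plain ratios of the intervals. Arntl counts of the NC libraries ran from 5 to 33, so the separation rests on few Arntl counts. The mean log2 difference was 2.31 for HS against NC and -2.84 for CAL against HS.

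In the colon the Dbp to Arntl ratio was 0.281, 0.153, 0.188, 0.278 and 1.53 in NC, 1.44, 4.57, 3.95, 3.73 and 2.85 in HS, and 0.0854 to 0.697 in CAL. Every HS library lay above every CAL library, and NC replicate 5 alone among the controls reached the HS range. The mean log2 difference was 3.26 for HS against NC and -4.01 for CAL against HS. The Nr1d2 to Arntl ratio separated the same groups in the cortex (2.29 and -2.43, no overlap) and CAL from HS in the colon (-2.93, no overlap). The Nr1d1 to Arntl ratio overlapped between HS and NC in the cortex (0.58) and separated CAL from HS in the colon (-2.61). The Per3 to Arntl ratio overlapped in every comparison of both tissues. A score took the mean log2 CPM of Dbp, Tef, Usp2 and Wee1 less that of Arntl and Clock. It separated HS from NC and CAL in the cortex (1.75 and -1.77). In the colon it overlapped in every comparison (2.08 for HS against NC, -2.35 for CAL against HS). The ratios and the score were built from genes chosen on the cortex, and carry no test.

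**Figure D4:**
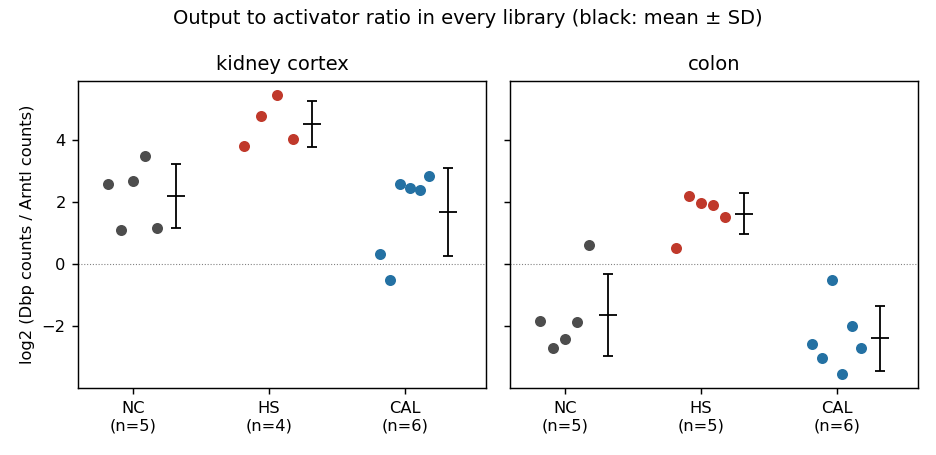
Log2 of the ratio of Dbp to Arntl counts (0.5 added to each) in each library of cortex (left) and colon (right), with mean ± SD in black. HS libraries lie highest in the cortex, from 3.82 to 5.45. In the colon they run from 0.53 to 2.19, and NC replicate 5, at 0.61, lies above HS replicate 1.

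Within groups, libraries with less Arntl tended to have more Dbp. With group means removed, r over 15 cortex libraries was -0.67 (rho -0.63), with permutation p of 0.0106 and 0.0188 (adjusted 0.0983 and 0.160), and -0.66 without the 2 libraries farthest from the median. In the colon (16 libraries) r was -0.61 (rho -0.61), with permutation p of 0.0109 and 0.0138 (adjusted 0.0983 and 0.160), and -0.30 without the 2 farthest, so there it rests on those libraries. Of the 18 relations of Arntl with the other 9 genes in both tissues, none passed after adjustment (100000 two-sided permutations within groups). Tef had r of -0.59 in the cortex and -0.62 in the colon (permutation p = 0.0323 and 0.0206, adjusted 0.116 for each), with rho of -0.52 and -0.57 (permutation p = 0.0643 and 0.0302, adjusted 0.165 and 0.160). Without the 2 farthest libraries r was -0.55 and -0.51. Nr1d1 had r of -0.61 in the cortex (permutation p = 0.0269, adjusted 0.116) and -0.20 in the colon (permutation p = 0.471, adjusted 0.592). Per3 had r of -0.56 in the cortex (permutation p = 0.0482, adjusted 0.144), and -0.31 without the 2 farthest. The largest positive r were 0.47 for Clock and 0.40 for Per2, both in the colon (permutation p = 0.0988 and 0.119, adjusted 0.237 for each).

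Over the 15 cortex libraries, group differences included, the genes most like Arntl were Gabarapl1 (r = 0.84), Sh3tc1 (0.82), Sirt2 (0.80), Psmd9 (0.80) and Slc45a3 (0.80), out of 7524. The most opposite were Arhgap5 (-0.89), Dbp (-0.83), Gpr160 (-0.83), Clic5 (-0.82) and Morf4l1 (-0.80). Those most like Dbp were Clic5 (0.85), Arhgap5 (0.85), Tef (0.82), Rnf139 (0.81) and Ggact (0.79), and the most opposite were Pde4dip (-0.84), Arntl (-0.83), Serinc4 (-0.80), Sirt2 (-0.80) and Ncald (-0.75). These r share libraries and the group differences that chose Arntl, Dbp and Tef, and carry no p.

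Other clock genes, 22 of 23 listed in the table, were tested where their counts allowed. This list was also chosen with earlier results of these data known, so its p are a description and not independent tests. In the cortex 9 were tested for HS against NC and 1 passed, Nampt, an enzyme of NAD synthesis under clock control, which was higher (0.94, SE 0.23, edgeR quasi-likelihood adjusted p = 0.0127, lost without HS replicate 2 at 0.0576). That is 1 of 9, near the 11% of all genes that passed, and at an unadjusted p under 0.05 it was also 1 of 9, where 27.3% of all genes were. The others closest to the threshold were Bhlhe40 (-0.32), Csnk1d (-0.27), Rora (0.52), Fbxw11 (0.24) and Gsk3b (-0.26). For CAL against HS 0 of the 9 passed edgeR (0.758% of all genes) and 2 had an unadjusted p under 0.05 (16.2% of all genes): Rora (-0.92) and Nampt (-0.48). In the colon 0 of 12 passed edgeR in either comparison. At an unadjusted p under 0.05, HS against NC gave 4 of 12 (8.51% of all genes), namely Nono (0.60), Nfil3 (-1.26), Npas2 (-0.86) and Cry1 (-0.92). CAL against HS gave 3 of 12 (10.5% of all genes), namely Nfil3 (1.34), Npas2 (0.87) and Cry1 (0.93). Npas2 is a relative of Clock that pairs with Arntl, Nfil3 competes with Dbp for D-boxes, and Cry1 is a repressor that peaks late in the cycle. Their adjusted p ran from 0.345 to 0.576. In the cortex Npas2, Nfil3 and Cry1 were too low in counts for the test. Mean CPM of Cry1 there was 4.39 in NC, 17.3 in HS and 8.81 in CAL, the other way from the colon. Npas2 (5.78, 1.17 and 3.80) and Nfil3 (10.8, 4.04 and 10.1) went the same way as in the colon.

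Between colon and cortex of control rats, Arntl was higher and Tef, Dbp and Usp2 were lower in the colon. The cortex control libraries also entered the contrast that chose the genes. Colon and cortex libraries of the same number may come from 1 rat, and the main fit did not pair them. Of the 10 genes, 2 were higher and 3 lower in the colon at an adjusted p under 0.05 (edgeR quasi-likelihood test over all 31 libraries), where 58.8% of 9128 genes passed, 30.4% higher and 28.4% lower, so the share is near the background. Arntl was 102 ± 30.0 CPM in colon and 20.6 ± 8.61 in cortex (log2 2.24, SE 0.32, adjusted p = 2.80e-07), without overlap. Tef was 16.8 ± 13.0 in colon and 86.6 ± 23.1 in cortex (-2.32, SE 0.37, adjusted p = 1.59e-06), also without overlap. Dbp (-1.25, SE 0.37, adjusted p = 0.00402) and Usp2 (-1.25, SE 0.36, adjusted p = 0.00334) were lower in colon, and Per3 (1.55, SE 0.53, adjusted p = 0.0130) was higher, but not without colon NC replicate 5 (1.01, adjusted p = 0.119). Clock, Per2, Nr1d1, Nr1d2 and Wee1 did not pass, with log2 differences of -0.02, 0.73, 0.38, -0.03 and 0.56. Of 14 other clock genes tested, 4 were higher in colon (Npas2 3.26, Cry1 2.85, Nampt 0.76 and Csnk1d 0.52) and 1 was lower (Rora -2.99). The Nampt difference was lost without colon NC replicate 5 (0.50, adjusted p = 0.0903).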

How the data were processed

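RNA from kidney cortex and colon was sequenced in 31 libraries. Per the submitters' processing notes, FastQC 0.11.9, Trimmomatic 0.39, HISAT2 2.1.0 and featureCounts 1.6.5 were used with the build Rnor_6.0; the annotation and strand setting are not given in the sources used here. The deposited values are raw counts per gene symbol, not normalised, and each library's group comes from its label. Counts were scaled (TMM), filtered (minimum count 10, minimum total 15) and tested in R 4.3.3 by quasi-likelihood (edgeR 4.0.16). The 3 groups of a tissue shared 1 fit, the comparison of tissues used all 31 libraries, and Benjamini-Hochberg adjustment ran over all genes tested, with a threshold of 0.05. Group means are ± SD. On simulated counts of the colon, HS against NC recovered 20% of genes with a simulated log2 change of 1 and 82% of those with 2; the cortex gave 62% and 96%.

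The genes, the lists of other clock, glucocorticoid-responsive, heat- and cold-responsive, kidney transport and G2/M genes, and the naming rule were chosen with earlier results of these data known; 1 gene of the other clock genes is not reported here. Under that rule all 10 genes are named, up to 6 other clock genes per comparison by smallest p, and 5 genes each way by correlation with Arntl and Dbp among genes whose log2 CPM averaged 3 or more (prior count 2). Alternatives were DESeq2 1.42.0, its size factors, no filter, a filter that asks 4 libraries for 1 CPM, the compared groups alone, robust empirical Bayes, limma 3.58.1 voom with library weights, a replicate block, leaving out each library, and colon fits without HS replicates 3 and 4. No 2 libraries held identical values.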

Additional observations from a re-analysis of the deposited data

Results flagged for a closer look

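Among the 60 groups of libraries (10 genes, 2 tissues, 3 treatments), 3 held a library far from the rest by Dixon's criterion, where chance gives about 3. Dbp in colon NC replicate 5 was 105 CPM, with the next NC library at 30.3 CPM, and this library also had the least Arntl of the colon controls (68.5 CPM). Dbp in colon CAL replicate 3 was 42.5 CPM, with the next at 22.2 CPM, and this library had the least Arntl of its group (61.7 CPM). Nr1d1 in cortex CAL replicate 6 was 82.5 CPM, with the next at 45.2 CPM. Between CAL and NC, Per2 stood at 0.93 in the cortex and -0.62 in the colon, and Wee1 at 0.58 and -0.72. In both cases the tissues went opposite ways, and that difference was not tested. Wee1 in the colon became 0.048 with voom, on the same side as the cortex.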

How the results depend on the processing

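The choice of the 10 genes used HS against NC in the cortex, and CAL against HS shares its HS libraries. Counts of the 10 genes in these cortex comparisons are therefore a description, and nothing is read from them. In the cortex, 5 of the 10 genes passed for HS against NC and leaving out single libraries gave 2 to 5 (324 to 850 genes in all, in place of 831). For CAL against HS, 2 passed, with 1 under DESeq2 size factors in edgeR, 5 without the filter, 4 with robust empirical Bayes, 4 with voom and 0 to 3 with single libraries left out. Over all genes that comparison gave 57, with 101 by DESeq2, 128 without the filter, 30 from the compared groups alone and 2 to 80 with single libraries left out. Same-numbered libraries of different groups had a mean correlation of deviations of -0.019 within the cortex and 0.030 within the colon. Between cortex and colon of a treatment, same-numbered libraries had means of 0.044 in NC, 0.040 in HS and 0.051 in CAL. Pairs with other numbers had -0.011, -0.010 and -0.010. Whether same-numbered libraries of the 2 tissues came from 1 rat was not tested. The replicate block gave 1 for CAL against HS in the cortex (22 genes in all) and 0 in the colon, where it ended the call of Dbp (-2.40, adjusted p = 0.152), and changed no other count of the 10 genes by over 1.5 times.

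In the colon, HS against NC gave 0, but 1 with DESeq2 and 1 without the filter (Arntl in both, of 11 and 59 genes in all), and 0 to 1 with single libraries left out. CAL against HS gave 1, but 2 without the filter (66 genes in all), 2 with the 1 CPM filter (5 in all), 2 with robust empirical Bayes (2 in all), 0 with voom (Dbp -2.53, adjusted p = 0.0586), 0 without HS replicates 3 and 4, and 0 to 2 with single libraries left out. Each count of 2 there is Dbp with Arntl. DESeq2 gave no adjusted p for the 10 genes there, because it set them aside as low in counts. The causes of these differences were not tested.

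None of the values of the 10 genes that changed sign in the colon or between control tissues was past the threshold. For HS against NC in the colon, Clock became 0.11 with voom, 0.16 without HS replicates 3 and 4, and -0.44 to 0.16 with single libraries left out. For CAL against NC there, Clock ran from -0.068 to 0.51 and Per3 from -0.37 to 0.50 with single libraries left out, and Wee1, at -0.72, became 0.048 with voom. Between control tissues, Clock ran from -0.28 to 0.20 and Nr1d2 from -0.32 to 0.16 with single libraries left out, Nr1d2 became 0.024 with the compared groups alone, and Wee1, at 0.56, became -0.20 with voom. In the cortex, where no test is given, Clock took both signs in all 3 comparisons. For CAL against NC there, Dbp ran from -0.43 to 0.066, Usp2 from -0.33 to 0.11, Per3 from -0.47 to 0.014, Nr1d2 from -0.024 to 0.28 and Tef from -0.078 to 0.23 over all alternatives. The Dbp to Arntl differences that separated HS from NC or CAL kept their sign in all alternatives. Depth limits the low genes most: Arntl rests on 1 to 7 counts in the cortex HS libraries, and Dbp on 5 to 19 in the colon CAL libraries.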

Other observations

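Ciart, a clock repressor too low in counts for the test within either tissue, was picked here after its values were seen. In the colon it stood at 7.38, 1.57, 2.76, 9.21 and 21.7 CPM in NC, at 6.81, 11.2, 11.1, 59.6 and 72.9 CPM in HS, and at 0 to 7.72 CPM in CAL, with 4 of the 6 CAL libraries at 0. In the cortex its HS libraries had 6.65, 6.10, 31.6 and 5.97 CPM and its NC libraries 0 to 5.91 CPM.

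The other lists were short and few of their genes passed edgeR. They were chosen with earlier results of these data known, so the p of their genes are a description and not independent tests. Over all genes, 11% passed for HS against NC in the cortex (7.35% higher, 3.69% lower). The single calls below are to be read against that share. Of 7 glucocorticoid-responsive genes tested in the cortex, 1 was higher in HS than in NC: Tsc22d3, also called GILZ, rose from 133 to 252 CPM (log2 0.95, SE 0.25, adjusted p = 0.0196, edgeR quasi-likelihood test). Of 6 heat- and cold-responsive genes, 1 was higher, the cold-shock RNA-binding gene Rbm3 (1.0, SE 0.20, adjusted p = 0.00393), which stood at 1.10 (SE 0.28, adjusted p = 0.270) in the colon. Of 10 kidney transport genes 0 passed, with 3 at an unadjusted p under 0.05 (27.3% of all genes), among them the vasopressin receptor gene Avpr2 (-0.79, SE 0.26, adjusted p = 0.0543). Of the G2/M genes 1 could be tested in the cortex, Cdc25b, a phosphatase that opposes Wee1, and it fell by 2.58 (SE 0.65, adjusted p = 0.0144). For CAL against HS in the cortex and both colon comparisons with HS, 0 genes of these 4 lists passed edgeR. Counts at an unadjusted p under 0.05 follow in the order glucocorticoid-responsive, heat- and cold-responsive, kidney transport and G2/M. CAL against HS in the cortex gave 1 of 7, 1 of 6, 0 of 10 and 0 of 1 (16.2% of all genes). In the colon, HS against NC gave 0 of 7, 2 of 6, 2 of 7 and 2 of 5 (8.51% of all genes). CAL against HS there gave 2 of 7, 3 of 6, 2 of 7 and 1 of 5 (10.5% of all genes).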
